A study of Mus musculus with 16 samples.

Results

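Activins are secreted dimers of the TGF-beta family, built from beta subunits that the genes Inhba, Inhbb, Inhbc and Inhbe encode. Those 4 subunit genes and the follistatin genes Fst and Fstl3, whose proteins bind activins and keep them from their receptors, were followed in mouse liver with and without the mitochondrial carrier gene Slc25a47. The 6 genes were taken by name from a table of 53714 genes, and 5 of them were among the 13905 genes that passed a filter on low counts, Fstl3 being the exception. They were chosen by their levels in these same 16 libraries, so their differences are given as descriptions without p-values.

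The livers came from male mice, aged 9 weeks, of the strain C57BL/6 Slc25a47tm1c(EUCOMM)Hmgu, in which the conditional allele is part of the background of every group. The 4 groups were fasted KO (genotype Slc25a47hep-/-, fasted overnight), fasted WT (Slc25a47hep+/+, fasted overnight), fed KO and fed WT (the same genotypes on chow), with 4 libraries each. The KO is a hepatic deletion, and the Cre driver that made it is not given in the sources used here. Nothing in the labels ties a library to a litter or batch, and the p-values below measure the spread between these libraries.

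Each library held 19.6 to 27.3 M counts assigned to genes. Slc25a47, the deleted gene, averaged 261 ± 77 CPM (counts scaled to library size) in fasted KO livers and 950 ± 130 CPM in fasted WT livers, and 126 ± 32 CPM in fed KO livers and 636 ± 150 CPM in fed WT livers (SD, n = 4 each), with no overlap between genotypes. Reads aligned to several places made up 32% to 39.3% of all counts in KO libraries and 40.4% to 45.8% in WT libraries, and the scaling factors (TMM, which corrects for library composition) were 1 to 1.141 in KO and 0.9028 to 0.9662 in WT. The 12 hepatocyte markers, Alb among them, were abundant in every library, with summed levels of 110400 to 164700 CPM. Fasted WT replicates 2 and 4 stood apart by pancreatic acinar transcripts, with summed marker levels of 1822 and 506.8 CPM, against 7.961 and 43.13 CPM in fasted WT replicates 1 and 3 and at most 77.44 CPM in any other library. For the genes named below, differences between genotypes that gained or lost a call without those 2 libraries are given with the gene.

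Activin dimers bind the type II receptors Acvr2a and Acvr2b, which recruit the type I receptors Acvr1b or Acvr1c, and the signal passes to SMAD2 and SMAD3. Inhba and Inhbb encode the subunits of activins A, AB and B, which are made in many tissues. Inhbc and Inhbe are expressed mainly in hepatocytes, and their products, activins C and E, circulate as liver-derived hormones; activin E acts on adipose tissue through Acvr1c. Follistatin (Fst) is itself a secreted product of the liver.

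Inhbe and Inhbc lie next to each other on chromosome 10, both on the minus strand, in mouse build GRCm38 (GENCODE annotation). Inhbe spans chr10:127348857-127354411 and Inhbc spans chr10:127356322-127370431, with 1910 bases between the start site of Inhbe and the end of Inhbc. Fstl3 is on the same chromosome at chr10:79777272-79782630 (plus strand). Inhba (chr13:16011851-16031621, plus strand) and Fst (chr13:114452290-114458951, minus strand) share chromosome 13, and Inhbb is at chr1:119415465-119422248 (minus strand). The promoter windows of the 3 subunit genes that differed most between groups follow, from RefSeq (GRCm38.p6). Each runs from 250 bases before to 50 bases after a start site, 5′ to 3′ on the gene's strand. The capitals in Inhbe mark its match to TGATGNAA, the core of the composite element bound by ATF4 and C/EBP factors, read on the opposite strand.
Inhbe: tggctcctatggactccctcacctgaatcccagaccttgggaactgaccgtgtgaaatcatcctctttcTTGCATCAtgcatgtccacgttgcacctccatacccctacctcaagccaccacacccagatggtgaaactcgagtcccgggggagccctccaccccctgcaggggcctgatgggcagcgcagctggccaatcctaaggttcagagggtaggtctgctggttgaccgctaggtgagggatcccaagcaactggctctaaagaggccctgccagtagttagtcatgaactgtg
Inhbc: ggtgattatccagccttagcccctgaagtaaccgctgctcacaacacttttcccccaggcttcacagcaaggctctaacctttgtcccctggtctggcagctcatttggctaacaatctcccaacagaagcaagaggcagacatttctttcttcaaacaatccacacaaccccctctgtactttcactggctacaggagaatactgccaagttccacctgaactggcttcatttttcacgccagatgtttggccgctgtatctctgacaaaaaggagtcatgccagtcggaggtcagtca
Inhba: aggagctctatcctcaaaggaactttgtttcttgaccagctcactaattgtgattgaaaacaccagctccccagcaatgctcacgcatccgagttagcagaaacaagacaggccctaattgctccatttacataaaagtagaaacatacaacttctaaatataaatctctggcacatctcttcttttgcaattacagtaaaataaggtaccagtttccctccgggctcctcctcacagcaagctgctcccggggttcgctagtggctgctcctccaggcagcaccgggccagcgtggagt

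The windows are chr10:127351799-127352098 for Inhbe, chr10:127370499-127370798 for Inhbc and chr13:16011601-16011900 for Inhba. The RefSeq start site of Inhbe lies 2563 bases inside the start site of the GENCODE gene, and Inhba has a further RefSeq start 7595 bases upstream of the GENCODE start. Every member except Fst had a window, and each was searched on both strands for TGATGNAA, the cAMP response element TGACGTCA and the forkhead element TGTTTAC. The match in Inhbe, at positions -181 to -174 from the start site, was the only match to any of these motifs in the 5 windows. Among all 32851 windows of this length, 3.97% held TGATGNAA, 1.79% held TGACGTCA and 3.65% held TGTTTAC. A match describes letters in the window and is not evidence of binding.

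Inhbe differed most. It had 187, 154, 297 and 282 CPM in the 4 fasted KO livers, against 89.4, 97.3, 73.7 and 87.7 CPM in the fasted WT livers. In fed livers it had 19.1, 36.2, 20.8 and 22.3 CPM in KO, against 28.2, 40.4, 35.6 and 29.3 CPM in WT. Every fasted KO liver was above every fasted WT liver, every fasted liver was above every fed liver, and the fed genotypes overlapped. The fitted level was 2.65-fold higher in fasted KO than in fasted WT livers (log2 difference 1.40 ± 0.23, SE). In fed livers the log2 difference of KO minus WT was -0.44 ± 0.24. Fasted KO livers stood 9.35-fold above fed KO livers (log2 3.23 ± 0.25), and fasted WT livers 2.61-fold above fed WT livers (log2 1.38 ± 0.24). The group means were 230 ± 70 CPM in fasted KO and 87 ± 9.8 CPM in fasted WT livers, and 24.6 ± 7.9 CPM in fed KO and 33.3 ± 5.7 CPM in fed WT livers (SD, n = 4 each). Fasted KO was highest and fasted WT next, and only the 2 fed groups overlapped. Fed KO replicate 2 was the highest of its group, and without it the fed log2 difference was -0.69. Without fasted WT replicates 2 and 4 the fasted log2 difference was 1.497.

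Inhbc, the neighbour of Inhbe, had a different pattern, with fed KO livers low. It had 45, 53.2, 36.1 and 40.1 CPM in fed KO livers, against 63.5, 65.1, 76.6 and 68.8 CPM in fed WT livers. In fasted livers it had 64.7, 65.2, 71.8 and 73.1 CPM in KO, against 49.7, 60.1, 63.3 and 77.6 CPM in WT. The fed genotypes did not overlap, and the fasted genotypes did. The log2 difference of KO minus WT was -0.65 ± 0.12 in fed livers and 0.13 ± 0.12 in fasted livers. Between feeding states it was 0.66 ± 0.12 for fasted KO minus fed KO, without overlap, and -0.13 ± 0.12 for fasted WT minus fed WT. Without fasted WT replicates 2 and 4 the fasted genotype difference was 0.28 and that between fasted and fed WT -0.28. With library totals, which move the median of all genes to 0.215, the fed genotype difference was -0.43. The group means were 68.7 ± 4.4 CPM in fasted KO and 62.7 ± 12 CPM in fasted WT livers, and 43.6 ± 7.4 CPM in fed KO and 68.5 ± 5.8 CPM in fed WT livers (SD, n = 4 each), and the 3 higher groups overlapped each other. Fed KO livers, at up to 53.2 CPM, also overlapped fasted WT livers, which went down to 49.7 CPM. The summed hepatocyte markers were also lower in fed KO livers, at 110400 to 145500 CPM, against 149800 to 158400 CPM in fed WT livers (exact permutation p = 0.0286, adjusted p = 0.133 over 28 tests). Of 12 markers, none at 0, 1 was called higher and 5 lower there, beside 14% and 16.9% of all genes. Alb, the largest by mean, was not among them (log2 -0.21 ± 0.17). In fasted livers the sums overlapped, at 136200 to 156300 CPM in KO and 121800 to 164700 CPM in WT. There 1 marker was called higher and 7 lower, beside 13.8% and 14.5% of all genes. The part of the hepatocyte markers in the Inhbc result was not tested, and in bulk liver fewer cells of a type and less RNA per cell cannot be told apart.

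Inhba was low in fasted WT livers, and the other 3 groups overlapped. It had 7.64, 9.11, 11.4 and 12.2 CPM in fasted KO livers, against 4.03, 5.11, 4.2 and 3.46 CPM in fasted WT livers. In fed livers it had 13.7, 11.2, 9.83 and 11.6 CPM in KO, against 13.2, 13.4, 8.9 and 8.14 CPM in WT. Every fasted WT liver lay below all other livers. The fasted genotypes differed 2.40-fold (log2 1.26 ± 0.19, KO higher), while the log2 difference of fed KO minus fed WT was 0.08 ± 0.17. Fasted WT minus fed WT came to -1.38 ± 0.19 on the log2 scale, and fasted KO minus fed KO to -0.19 ± 0.17. The group means were 10.1 ± 2.1 CPM in fasted KO and 4.2 ± 0.68 CPM in fasted WT livers, and 11.6 ± 1.6 CPM in fed KO and 10.9 ± 2.8 CPM in fed WT livers (SD, n = 4 each). Without fasted WT replicates 2 and 4 the fasted genotype difference was 1.29.

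Inhbb, whose product forms activin B, was low and variable, with 16 to 113 counts per library. It had 2.18, 4.01, 2.55 and 4.39 CPM in fasted KO livers, against 0.849, 1.94, 2.19 and 5.06 CPM in fasted WT livers. Fed KO livers had 2.08, 1.49, 3.49 and 4.51 CPM, against 1.98, 3.44, 1.86 and 2.5 CPM in fed WT livers. All 4 groups overlapped, and the log2 differences were 0.39 ± 0.44 for the fasted and 0.22 ± 0.45 for the fed genotypes. The highest fasted WT value belonged to replicate 4, a library with pancreatic transcripts. Without replicates 2 and 4 the fasted genotype difference was 1.08, and fasted WT minus fed WT was -0.67 in place of 0.03.

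The follistatins bind activins outside the cell. Fst had 8.69, 5.63, 15.9 and 9.24 CPM in fasted KO livers, against 6.53, 6.14, 9.56 and 3.46 CPM in fasted WT livers. It had 7.83, 8.93, 7.1 and 6.55 CPM in fed KO livers, against 11.8, 2.88, 7.84 and 4.36 CPM in fed WT livers. The 4 groups overlapped, with genotype differences (KO minus WT, log2) of 0.61 ± 0.42 fasted and 0.19 ± 0.42 fed. The feeding differences (fasted minus fed, log2) were 0.37 ± 0.41 in KO and -0.05 ± 0.43 in WT livers. Without fasted WT replicates 2 and 4 the fasted genotype difference was 0.29 and that between fasted and fed WT 0.28. The spread of Fst between libraries of a group was wide, so that differences of this size were not resolved.

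Fstl3, a follistatin-like inhibitor of activin and myostatin, had 113 counts over all 16 libraries. The counts were 20, 10, 9 and 5 in fasted KO livers, against 5, 5, 4 and 2 in fasted WT livers, and 11, 10, 14 and 0 in fed KO livers, against 6, 3, 4 and 5 in fed WT livers. In CPM that was 0.454 ± 0.27 and 0.204 ± 0.079 in fasted KO and fasted WT livers, and 0.342 ± 0.24 and 0.214 ± 0.079 in fed KO and fed WT livers (SD, n = 4 each). Genotypes overlapped in both feeding states. The count of 0 in fed KO replicate 4 allows up to 3 counts, or 0.146 CPM, for counting error alone. At this depth no difference in Fstl3 could be measured.

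**Figure D1:**
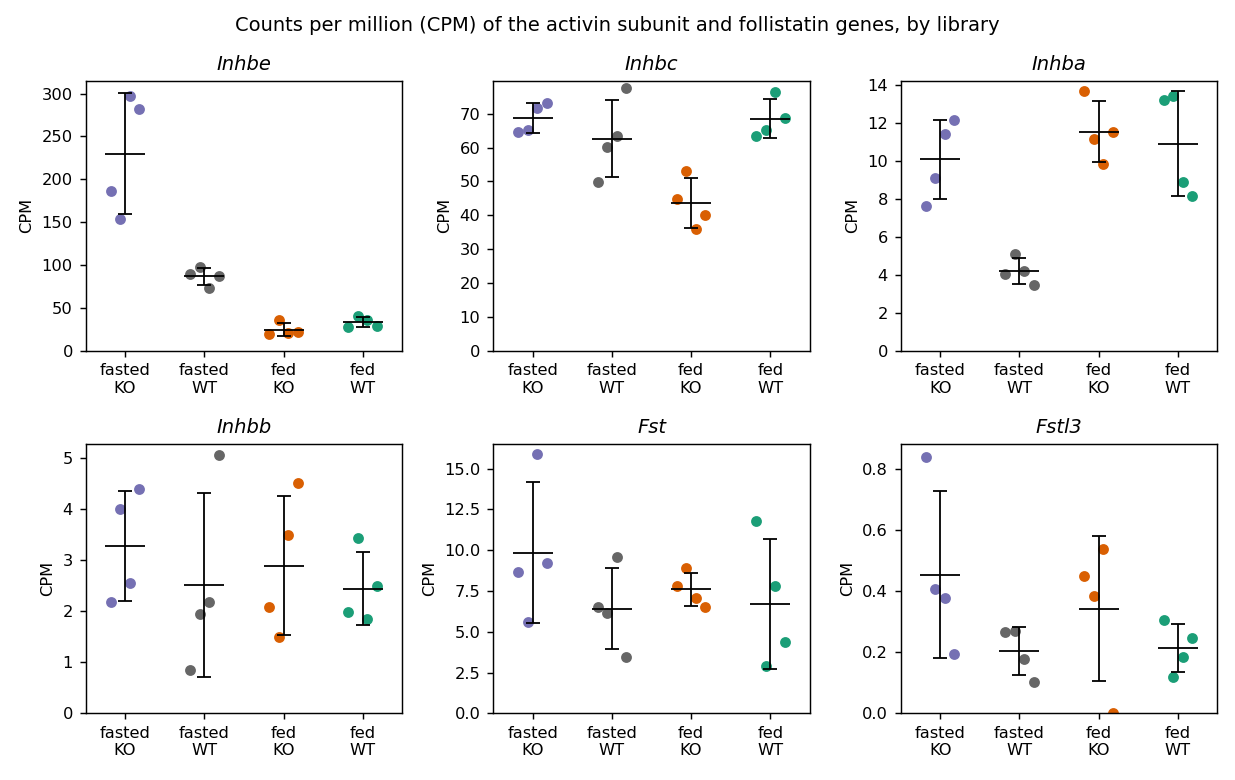
Level of each gene in CPM (linear axes, each from 0) in the 16 libraries. Points are libraries and bars are the group mean ± SD (n = 4). Inhbe in fasted KO livers lies between 154 and 297 CPM, above all other livers. Inhbc has its lowest mean in fed KO livers, which overlap fasted WT livers, and Inhba is lowest in fasted WT livers.

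Read as counts of members, 2 of the 5 filtered genes passed an adjusted p under 0.05 (edgeR) in fasted KO minus fasted WT, both higher (Inhba and Inhbe). The same contrast called 28.3% of all genes tested, 13.8% higher and 14.5% lower. In fed KO minus fed WT, 1 member (Inhbc) was called, lower, and Inhbe was called lower as well without fed KO replicate 2. In that contrast 30.9% of all genes were called, 14% higher and 16.9% lower. Fasted WT minus fed WT called 2 members, Inhbe higher and Inhba lower, against 34.5% of all genes (16.2% higher, 18.3% lower). Fasted KO minus fed KO called 2, Inhbc and Inhbe, both higher, against 41.4% (21.1% higher, 20.3% lower). Of all 6 members, 2, 1, 2 and 2 had no overlap between groups in these contrasts in turn, and the share of all genes tested without overlap was 29.5%, 28.4%, 32.8% and 38.2%. Since the members were selected on these contrasts, nothing is read from their counts, and the contrasts share groups with each other.

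The size of the genotype difference in fasted livers can be set against that in fed livers. The difference of the genotype differences, fasted KO minus fasted WT less fed KO minus fed WT, was 1.84 ± 0.33 on the log2 scale for Inhbe, 1.18 ± 0.26 for Inhba and 0.79 ± 0.17 for Inhbc. It was 0.42 ± 0.59 for Fst and 0.17 ± 0.63 for Inhbb. The first 3 were called, all higher, in a contrast that called 1.7% of all genes, 1.07% higher and 0.633% lower. Nothing is read from these calls either, since the members were selected on the same libraries, and the values are a description. The shapes behind them differed. For Inhbe a high fasted KO group stood behind the value, for Inhbc a low fed KO group, and for Inhba a low fasted WT group. With each of the 16 libraries left out in turn, the values lay between 1.70 and 2.09 for Inhbe, between 1.07 and 1.30 for Inhba and between 0.69 and 0.90 for Inhbc. Without fasted WT replicates 2 and 4 they were 1.94, 1.215 and 0.94 in that order, and Inhbe and Inhba were then not called. Inhba was also not called without fed KO replicate 3 or 4, fed WT replicate 1 or 2, fasted KO replicate 3 or 4, or fasted WT replicate 1. Inhbc was not called without fed KO replicate 3 or 4, fed WT replicate 3, fasted KO replicate 3 or 4, or fasted WT replicate 2.

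**Figure D2:**
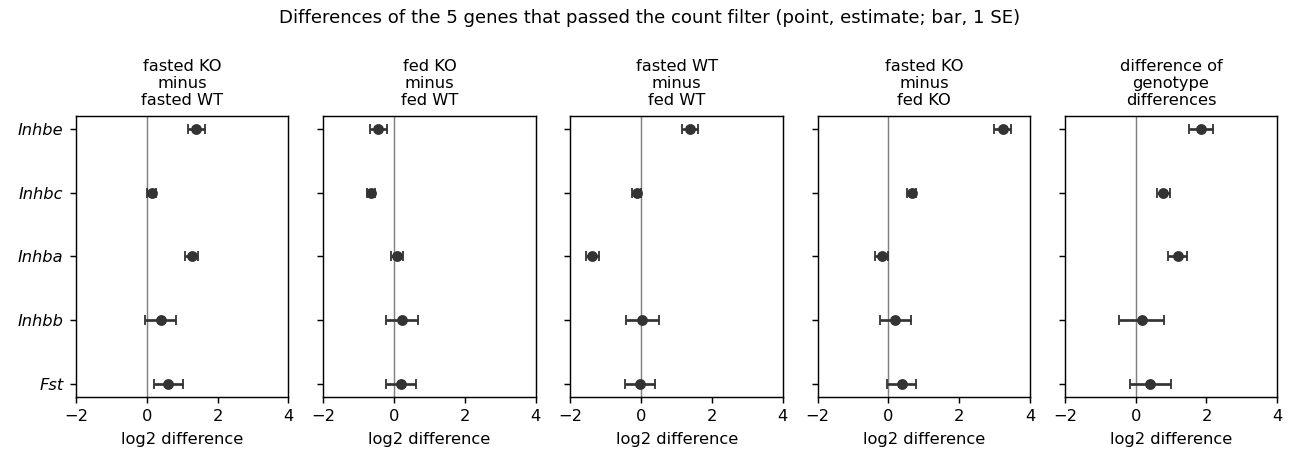
Log2 differences (points) with 1 SE (bars) of the 5 members that passed the count filter, 1 panel per contrast. Inhbe reaches 3.23 in fasted KO minus fed KO, and Inhbb and Fst lie between -0.05 and 0.61 in every panel.

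Levels can be compared between genes only per length. In CPM per kb of merged GENCODE exons, Inhbe averaged 43.3 ± 13.2 and Inhbc 37 ± 2.34 in fasted KO livers, and Inhba, Inhbb, Fst and Fstl3 lay at 1.58, 0.771, 2.15 and 0.186. In fed WT livers Inhbc averaged 36.9 ± 3.12 CPM per kb, against 6.27 ± 1.07 for Inhbe. On this scale Inhbe made up 51.5% ± 6.42 of the length-scaled level of the 4 subunit genes in fasted KO livers and 32.2% ± 5.15 in fasted WT livers, and 14.9% ± 2.6 in fed KO livers and 13.8% ± 1.98 in fed WT livers (SD, n = 4 each). Inhbc held 45.6%, 65.4%, 76.7% and 81.1% in those groups. The ratio of Inhbe to Inhbc per kb was 0.826 to 1.45 in fasted KO livers and 0.395 to 0.629 in fasted WT livers, and 0.148 to 0.238 in fed KO and 0.149 to 0.217 in fed WT livers, so the fed genotypes overlapped in this ratio. These values depend on the length used for Inhbe, and its RefSeq gene span, 2447 bases with the intron, was tried after the data had been seen. Per kb of that span its level was 94 ± 28.8 CPM in fasted KO, 35.6 ± 4.01 in fasted WT, 10 ± 3.21 in fed KO and 13.6 ± 2.33 in fed WT livers. Its share of the 4 subunits was then 69.6% ± 5.5 in fasted KO and 50.6% ± 5.88 in fasted WT livers, and 27.6% ± 4.09 in fed KO and 25.7% ± 3.14 in fed WT livers. The ratio of Inhbe to Inhbc became 1.8 to 3.14 in fasted KO and 0.858 to 1.37 in fasted WT livers, and 0.323 to 0.517 in fed KO and 0.323 to 0.471 in fed WT livers. Which of the pair stood higher in fasted livers thus moved with the length, while the fasted genotypes did not overlap in the ratio with either length.

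**Figure D3:**
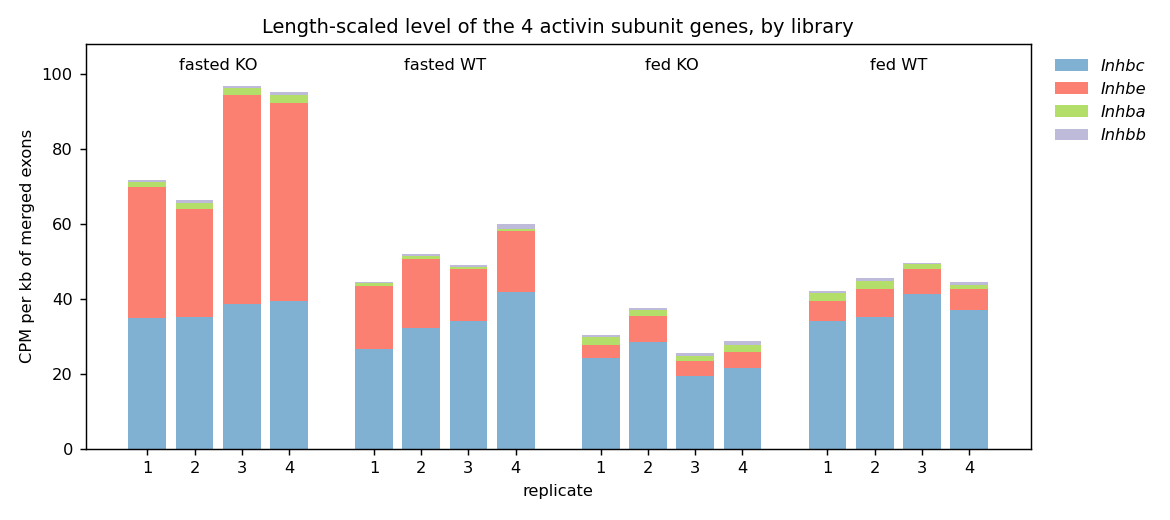
Stacked bars give the level of the 4 subunit genes in CPM per kb of merged GENCODE exons, 1 bar per library. The sum is 66.4 to 96.9 in fasted KO livers and 44.4 to 59.9 in fasted WT livers, and 25.7 to 37.5 in fed KO livers and 42 to 49.7 in fed WT livers, and Inhbe makes up the larger part of the difference in fasted livers.

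The summed level of the 4 subunits was 82.6 ± 15.8 CPM per kb in fasted KO and 51.3 ± 6.53 in fasted WT livers, and 30.5 ± 5.03 in fed KO and 45.4 ± 3.22 in fed WT livers (SD, n = 4 each). The genotypes did not overlap in either feeding state, and KO livers were higher when fasted and lower when fed. With the RefSeq span of Inhbe the sums were 100 to 162 in fasted KO and 64.1 to 79.3 in fasted WT livers, and 30.2 to 45.5 in fed KO and 48.2 to 57.5 in fed WT livers, again without overlap. With GENCODE exons the ratio of the 4 subunits, mostly Inhbc and Inhbe, to the 2 follistatins per kb was 26.8 to 47.7 in fasted KO and 22.8 to 75.2 in fasted WT livers, and 14.5 to 20.1 in fed KO and 15.6 to 67.3 in fed WT livers. That of Inhba alone to Fst was 0.516 to 1.16 in fasted KO and 0.315 to 0.718 in fasted WT livers, and 0.897 to 1.27 in fed KO and 0.805 to 3.35 in fed WT livers. Both ratios overlapped between genotypes in both states. They compare RNA levels and do not show how much activin is bound.

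Within 100 kb of Inhbe the table held 16 genes, 11 of them tested, Inhbe and Inhbc included. This region was looked at after the annotation had been seen. Ddit3, which encodes the stress-induced transcription factor CHOP, starts at -63.6 kb from the start site of Inhbe. It averaged 37.2 ± 14 CPM in fasted KO and 3.93 ± 1.6 CPM in fasted WT livers, and 11.4 ± 4.3 CPM in fed KO and 3.33 ± 1.0 CPM in fed WT livers (SD, n = 4 each). Its log2 difference was 3.24 ± 0.37 fasted (adjusted p = 2.9e-05) and 1.78 ± 0.37 fed (adjusted p = 0.00283). Mars, the methionyl-tRNA synthetase gene, whose end overlaps Ddit3, fell in fed KO livers (log2 -0.37 ± 0.08, adjusted p = 0.00164) and had 0.16 ± 0.08 in fasted livers (adjusted p = 0.145). Its difference of genotype differences, 0.53 ± 0.11, passed as well (adjusted p = 0.0228), and was lost without fed KO replicate 3 (0.52), fasted KO replicate 3 (0.53) or fasted WT replicate 2 (0.52), and without fasted WT replicates 2 and 4 together (0.57). With library totals Mars had -0.15 fed, not called, and 0.35 fasted, called. R3hdm2, on the other side of Inhbc, rose in both states (log2 0.43 ± 0.09 fasted and 0.33 ± 0.09 fed, adjusted p = 0.00172 and 0.00972). Gm47200, annotated antisense to Inhbe and Inhbc, had 1 to 25 counts per library. It was lower in fed KO livers (log2 -2.37 ± 0.51, adjusted p = 0.00183) and its difference of genotype differences was 2.93 ± 0.61 (adjusted p = 0.0217; 2.72 and not called without fed KO replicate 3 or without fasted WT replicates 2 and 4). The kit keeps strand, but the strand setting of the counting is not given in the sources used here, so reads of Gm47200 and of the genes it overlaps cannot be told apart with certainty. The same holds for other genes named here with an annotated partner on the opposite strand, such as Inhba (Gm48444), Fst (Gm47040), Fstl3 (Prss57), Ddit3 (Mars), Acvr2a (Orc4), Atf5 (Il4i1 and Nup62) and Chrd (Thpo). The tested genes Dctn2 and Mbd6 rose in fed KO livers (log2 0.22 and 0.47, adjusted p = 0.00614 and 0.00557), and Kif5a, Arhgap9 and Gm4189 did not pass in either genotype contrast. Mbd6 was also called in fasted livers without fasted WT replicates 2 and 4 (0.50).

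**Figure D4:**
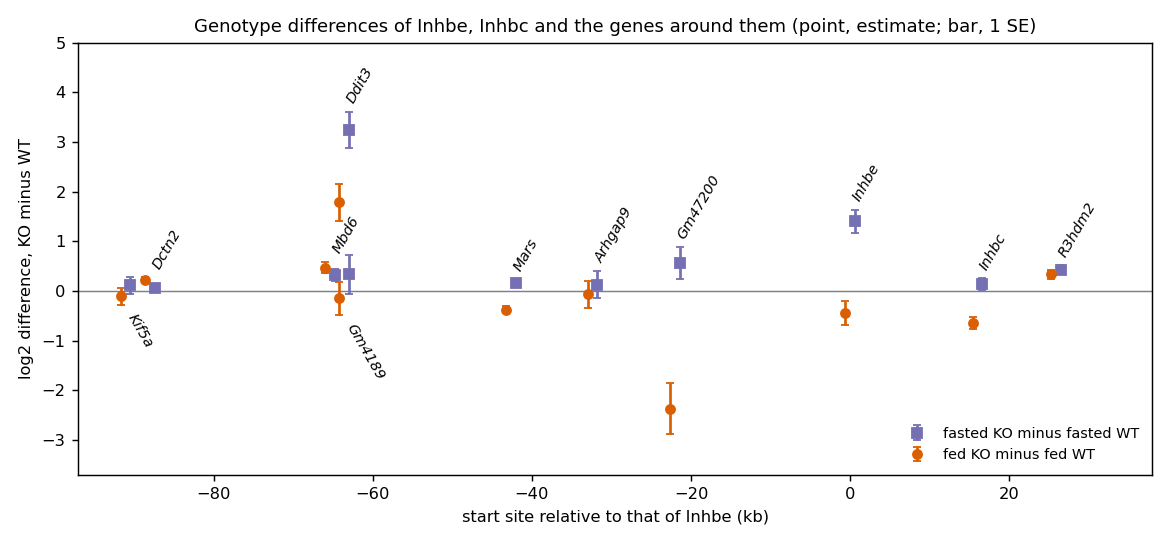
Log2 difference of KO minus WT (points, with bars of 1 SE) for the 11 tested genes within 100 kb of Inhbe, against the distance of each start site from that of Inhbe in kb. Squares are fasted and circles fed livers. Ddit3 (3.24) and Inhbe (1.40) are the highest in fasted livers, and Gm47200 (-2.37) is the lowest in fed livers.

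For the members whose group means spanned at least 1 on the log2 scale, the 3 genes with the most similar pattern over the 16 libraries were found by the root mean square difference of centred log2 CPM. For Inhbe (span 3.22) they were Klhdc8a (0.497), Plin5, a lipid droplet protein (0.53), and Tor3a (0.583), where the median of the 12644 genes compared was 1.32. Plin5 averaged 151 ± 19 CPM in fasted KO and 98 ± 14 CPM in fasted WT livers, and 33.7 ± 5.7 CPM in fed KO and 43.4 ± 17 CPM in fed WT livers (SD, n = 4 each). For Inhba (span 1.44) they were Slc16a6, of the monocarboxylate transporter family (0.263), St5 (0.299) and Erlin1 (0.302), with a median of 0.68 over all genes. St5 averaged 75.7 ± 13 CPM in fasted KO and 32.4 ± 6.1 CPM in fasted WT livers, and 77.4 ± 6.8 CPM in fed KO and 65.3 ± 3.1 CPM in fed WT livers (SD, n = 4 each). These genes were picked for their likeness over libraries that share 4 groups, and no test is attached to them.

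The rest of the pathway was read through 8 lists of 110 genes, 83 of them tested. In fasted KO minus fasted WT livers 13 rose and 4 fell, 20.5% of those tested, beside 28.3% of all genes. In fed KO minus fed WT livers 24 rose and 9 fell, or 39.8%, beside 30.9% of all genes. The difference of the genotype differences called 1 higher, Atf3, and 1 lower, Acta2, or 2.41%, beside 1.7%. Between fasted WT and fed WT livers 12 rose and 12 fell, or 28.9%, beside 34.5% of all genes. Between fasted KO and fed KO livers 16 rose and 15 fell, or 37.3%, beside 41.4%. The genotype counts of each list below stand beside the same shares of all genes tested. Those were 13.8% higher and 14.5% lower in fasted KO livers, and 14% higher and 16.9% lower in fed KO livers.

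Of 9 tested receptor genes, 1 fell in fasted KO livers, Bmpr2 (log2 -0.20 ± 0.07, adjusted p = 0.0468), and 0 passed in fed livers. The Bmpr2 call was lost without fasted KO replicate 1, 3 or 4 or fasted WT replicate 1, 3 or 4 (-0.21 to -0.18) and without fasted WT replicates 2 and 4 together (-0.24), and scaled by library totals the value was -0.02. The medians of the list were -0.09 fasted and 0.01 fed, beside 0.01 and -0.01 over all genes. Acvr2a, a type II activin receptor, averaged 27 ± 2.4 CPM in fasted KO and 27 ± 2.5 CPM in fasted WT livers, and 27.9 ± 4 CPM in fed KO and 27.2 ± 0.61 CPM in fed WT livers (SD, n = 4 each). Its log2 differences were 0.00 ± 0.10 fasted and 0.03 ± 0.10 fed (adjusted p = 1 and 0.824), and scaled by library totals the fed value was 0.25 and passed. Acvr2b had 0.243 to 2.72 CPM and no call. Acvr1b, the type I receptor of activins A and B, averaged 15.1 ± 1.5 CPM in fasted KO and 16.7 ± 2.2 CPM in fasted WT livers, and 9.89 ± 2.2 CPM in fed KO and 10.8 ± 1.1 CPM in fed WT livers (SD, n = 4 each). It rose with fasting in both genotypes (log2 0.61 ± 0.14 in KO and 0.62 ± 0.14 in WT, adjusted p = 0.00157 and 0.00166). Acvr1c, through which activin E acts on fat, lay between 0 and 0.265 CPM and did not pass the filter.

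Of 10 tested co-receptors and soluble modulators, 1 fell in fasted KO livers, and 3 rose and 4 fell in fed KO livers. In fed KO livers the BMP antagonist Chrd fell (-0.72 ± 0.22, adjusted p = 0.0173), as did Hfe2, the hemojuvelin gene (-0.34 ± 0.10, adjusted p = 0.0132). The Chrd call was lost without fed KO replicate 3 (-0.54) or 4 (-0.58), and both calls were lost with library totals (-0.50 for Chrd and -0.11 for Hfe2). The follistatin-like gene Fstl1 rose there (0.59 ± 0.13, adjusted p = 0.00286), with 0.07 ± 0.14 in fasted livers (adjusted p = 0.756). Inha, whose product pairs with beta subunits to form inhibins, lay between 0.04 and 0.252 CPM and did not pass the filter.

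Of 14 tested ligands from the rest of the family, 3 rose in fasted KO livers and 6 in fed KO livers, and 0 fell in either. Gdf9, known as an oocyte factor, averaged 3.21 ± 0.45 CPM in fasted KO and 0.22 ± 0.14 CPM in fasted WT livers, and 4.74 ± 2.4 CPM in fed KO and 0.607 ± 0.24 CPM in fed WT livers (SD, n = 4 each). Its log2 differences were 3.86 ± 0.47 fasted and 2.96 ± 0.38 fed (adjusted p = 1.41e-05 and 2.02e-05). Fasted WT replicates 1 and 3 had 0.106 and 0.0893 CPM, below the level of 3 counts there (0.159 and 0.134 CPM). The size of the fasted difference is therefore uncertain. Gdf2, the gene of BMP9, rose by 0.39 ± 0.08 and 0.46 ± 0.08 (adjusted p = 0.00173 and 0.000402), and Bmp5 by 0.35 ± 0.10 and 0.53 ± 0.10 (adjusted p = 0.0153 and 0.000813), in fasted and fed livers in that order. The fasted call of Bmp5 was lost without fasted WT replicate 4 (0.27) or replicates 2 and 4 (0.32). Gdf10 rose in fed KO livers (0.70 ± 0.13, adjusted p = 0.000517) and had 0.35 ± 0.13 in fasted livers (adjusted p = 0.052), passing there without fasted WT replicate 2 (0.45), 4 (0.43) or both (0.63).

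Among 15 Smads and their regulators, 1 rose in fasted KO livers (Ski, a SMAD corepressor, log2 0.31 ± 0.10, adjusted p = 0.0226), a call lost without fasted KO replicate 4 (0.20) or fasted WT replicate 2 (0.28), or without fasted WT replicates 2 and 4 (0.30). In fed KO livers 4 rose, Ski, Smad5, Smad6 and Tgif1, and 1 fell, Smad1 (log2 -0.46 ± 0.11, adjusted p = 0.00315; -0.23 and not called with library totals). The fed calls of the other 4 were each lost with some library left out. That of Ski was lost without fed KO replicate 4 or fed WT replicate 4 (0.28 and 0.29), and that of Tgif1 without fed KO replicate 2 or fed WT replicate 2 or 4 (0.34 to 0.36). That of Smad5 was lost without fed KO replicate 1 or 3 or fed WT replicate 1, 3 or 4 (0.18 to 0.22), and that of Smad6 without fed KO replicate 1, 2 or 3 or any fed WT replicate (0.33 to 0.52). Smad2 and Smad3, which carry the activin signal, were not called between genotypes in either state.

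Of 17 tested genes on a list of SMAD2/3 targets, 2 rose and 2 fell in fasted KO livers, and 5 rose and 1 fell in fed KO livers. Tgfbi, a secreted matrix protein, rose in both states (log2 0.51 ± 0.09 fasted and 0.61 ± 0.09 fed, adjusted p = 0.000373 and 6.31e-05). Cdkn1a rose in fasted KO livers (1.64 ± 0.41, adjusted p = 0.00946). The collagen genes Col1a1 and Col1a2 rose in fed KO livers (1.16 ± 0.24 and 0.73 ± 0.15, adjusted p = 0.00164 and 0.0013), and Fn1 fell in both states (-0.21 ± 0.07 fasted and -0.23 ± 0.07 fed, adjusted p = 0.0456 and 0.0255). The fasted call of Fn1 was lost with any 1 of the 8 fasted libraries left out (-0.22 to -0.16) and without fasted WT replicates 2 and 4 (-0.25), its fed call without fed KO replicate 3 or 4 or fed WT replicate 3 (-0.22 to -0.19), and both with library totals (-0.02 and -0.01). Acta2, smooth muscle actin, had a difference of genotype differences of -1.33 ± 0.33 (adjusted p = 0.045), with 2.6 ± 0.3 CPM in fasted KO and 4.1 ± 1.1 CPM in fasted WT livers, and 8.22 ± 2.7 CPM in fed KO and 5.13 ± 1.3 CPM in fed WT livers (SD, n = 4 each). That call held without fed KO replicate 2, fed WT replicate 4 or fasted WT replicate 4 and was lost without each of the other 13 libraries (-1.43 to -1.08) and without fasted WT replicates 2 and 4 together (-1.20). Acta2 and Col1a1 also stand on the list of stellate cell markers. The summed stellate cell and fibroblast markers were 630.8 to 696.1 CPM in fasted KO and 482 to 525.6 CPM in fasted WT livers, and 625.3 to 717.2 CPM in fed KO and 442.2 to 522.1 CPM in fed WT livers. The exact permutation p was 0.0286 in each state, the smallest that 4 against 4 can give (adjusted p = 0.133 over 28 tests). All 14 markers were detected, and none was at 0 in every library. Of them, 7 rose in fasted KO and 12 in fed KO livers, beside 13.8% and 14% of all genes. The bile duct marker sum was also higher in fed KO livers, at 63.31 to 72.44 CPM, against 54.81 to 63.27 CPM in fed WT livers (exact permutation p = 0.0286, adjusted p = 0.133). Of its 7 tested markers 0 were called there, beside 30.9% of all genes. Spp1, the largest by mean, had 46.2 ± 4.6 CPM in fed KO and 37 ± 3.7 CPM in fed WT livers. The pancreatic marker sum was lower in fed KO livers, at 8.346 to 23.69 CPM, against 24.9 to 32.5 CPM in fed WT livers (exact permutation p = 0.0286, adjusted p = 0.133). The part of these cells in the results was not tested.

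Of 12 SMAD1/5/9 targets, 0 passed in fasted livers and 3 in fed livers, 1 higher and 2 lower. Hamp, the iron hormone hepcidin, had 372, 328, 304 and 528 CPM in fasted KO livers, against 459, 478, 335 and 265 CPM in fasted WT livers. It had 77.4, 292, 79.5 and 64.4 CPM in fed KO livers, against 387, 557, 434 and 425 CPM in fed WT livers. Fed KO livers were all below fed WT livers, with replicate 2 well above the other 3, and fasted genotypes overlapped. The log2 difference was -1.81 ± 0.44 in fed livers (adjusted p = 0.00824) and -0.01 ± 0.43 in fasted livers (adjusted p = 0.994). In a fit of the 8 fed libraries alone the fed value was -1.79 (adjusted p = 0.0517). Hamp has a near copy, Hamp2, so the split of reads between them is uncertain. Tmprss6, a protease that restrains hepcidin, fell in fed KO livers (-0.32 ± 0.08, adjusted p = 0.0038; -0.10 and not called with library totals).

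Activin precursors are cut by proprotein convertases. Of 4 tested, 1 rose in both states, Pcsk6, with 167 ± 20 CPM in fasted KO and 116 ± 9.8 CPM in fasted WT livers, and 132 ± 5.2 CPM in fed KO and 106 ± 8.5 CPM in fed WT livers (SD, n = 4 each; log2 0.53 ± 0.08 and 0.32 ± 0.08, adjusted p = 0.00014 and 0.00792). Furin, Pcsk5 and Pcsk7 were not called between genotypes.

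A list of 9 regulators of the unfolded protein and amino acid stress responses and of C/EBP factors was set beside Inhbe, as the human gene INHBE is known to be inducible by endoplasmic reticulum stress in cell lines. Of these, 6 rose and 0 fell in fasted KO livers, beside 13.8% and 14.5% of all genes. In fed KO livers 5 rose and 1 fell, beside 14% and 16.9% of all genes. The list was chosen with earlier results of these data known, so nothing is read from its counts. Trib3, a pseudokinase gene induced by ATF4, had 140, 134, 279 and 336 CPM in fasted KO livers, against 12.9, 11.6, 12.6 and 6.72 CPM in fasted WT livers. In fed livers it had 49.9, 89.7, 56.2 and 38.8 CPM in KO, against 4.92, 5.32, 9.04 and 7.7 CPM in WT. Its log2 differences were 4.34 ± 0.40 fasted and 3.12 ± 0.40 fed (adjusted p = 8.17e-06 and 9.22e-05). The transcription factor gene Atf5 rose 3.21-fold and 4.13-fold (log2 1.68 ± 0.11 fasted and 2.05 ± 0.12 fed, adjusted p = 1.06e-08 and 1.83e-09), and Atf4 by 0.73 ± 0.10 and 0.43 ± 0.10 (adjusted p = 2.6e-05 and 0.00286). Atf3 had 13.1, 12.5, 28.2 and 26.7 CPM in fasted KO livers, against 1.17, 1.08, 0.848 and 1.09 CPM in fasted WT livers. Its difference of genotype differences was 2.92 ± 0.60 (adjusted p = 0.0309), a call lost without fed KO replicate 3, fed WT replicate 2, fasted KO replicate 3 or 4, or any fasted WT replicate (2.72 to 3.04), or without fasted WT replicates 2 and 4 together (2.98). The fed rise of Atf3 (1.35 ± 0.41, adjusted p = 0.0241) was lost without fed KO replicate 3 (1.24) or 4 (1.22), without fed WT replicate 2 (1.23), 3 (1.24) or 4 (1.12), and without the count filter (1.33).

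The genes of this list did not all move one way. Xbp1, an effector of the unfolded protein response, fell in fed KO livers (log2 -0.57 ± 0.18, adjusted p = 0.024) and had -0.43 ± 0.18 in fasted livers (adjusted p = 0.079). Cebpa and Cebpb, which encode C/EBP factors, had -0.28 and -0.16 fasted and -0.23 and -0.53 fed, none of them called. In fed KO livers Trib3, Ddit3, Atf5 and Atf4 were all above fed WT livers without overlap, where Inhbe overlapped with a log2 difference of -0.44. Within the fasted KO group, replicates 3 and 4 had the higher values of Inhbe, Trib3, Ddit3, Atf3, Atf4, Atf5 and Atf6. This was not so for Cebpa, Cebpb and Xbp1. In the fed KO group replicate 2 had the highest Inhbe, Trib3, Ddit3, Atf4, Atf5 and Cebpa and the lowest Cebpb and Atf3. Atf3 there had 2.68 CPM, against 3.35, 4.8 and 5.05 CPM in replicates 1, 3 and 4. Atf6 and Xbp1 were neither highest nor lowest in replicate 2. Whether any gene of this list acts on Inhbe in these livers was not tested.

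**Figure D5:**
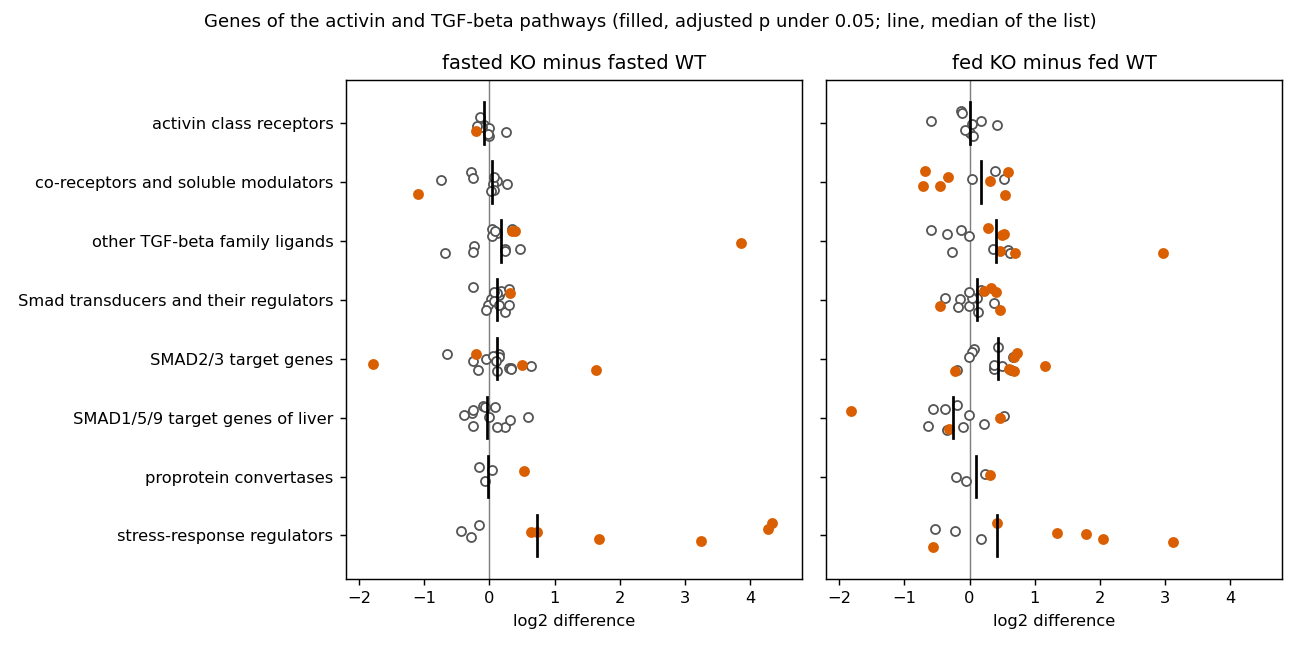
Log2 difference of KO minus WT for each tested gene of the 8 pathway lists, in fasted (left) and fed (right) livers. Filled points have an adjusted p under 0.05 and the black line is the median of the list. The stress-response list has medians of 0.73 fasted and 0.43 fed, and that of the receptors lies at -0.09 and 0.01.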

How the data were processed

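Livers of 16 mice (4 groups of 4) were profiled from 500 ng of RNA with a stranded mRNA kit, per the labels' protocols. The deposited values are raw, unnormalized counts per gene. The submitters' processing notes name HTSeq 0.9.1, STAR 2.5.3a, cutadapt 1.8 and the build GRCm38; the strand setting is not given in the sources used here. Summary lines that name no gene were left out of the gene totals.

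Genes were filtered with filterByExpr and scaled by TMM. All 16 libraries entered a single edgeR 4.0.16 quasi-likelihood model with robust estimation (common biological coefficient of variation 0.138, 12 residual degrees of freedom), and p-values were adjusted by Benjamini-Hochberg over 13905 genes, with a threshold of 0.05. CPM used the TMM factors. DESeq2 1.42.0 was an alternative, and the procedure was tested on simulated data. Marker sums were compared by exact two-sided permutation. The members and lists were chosen with earlier results of these data known.

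Named genes are the 6 members, in each list and genotype contrast the 4 called genes of smallest p (fewer where fewer passed), Inha, 4 activin receptors, Hamp, and the 3 genes most like each member that spans at least 1 (log2). Named after their values were seen were Acta2, and the genes around Inhbe. Alternatives were size factors of DESeq2, library totals, no filter, no robust estimation, only the groups compared, a replicate block, each library left out, and fasted WT replicates 2 and 4 left out; the RefSeq gene span of Inhbe was added after the data were seen. Values of 2 called genes of these lists are not reported here, though the list counts include them.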

Additional observations from a re-analysis of the deposited data

Results flagged for a closer look

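Of 248 groups of 4 libraries checked, 13 had a library far from the other 3, by the gap to its nearest neighbour over the whole range; chance gives about 1 in 20. None was in a member gene. Hamp in fed KO replicate 2 was high (ratio 0.933; 292 CPM, the next being 79.5 CPM). The pancreatic marker sum was high in fasted KO replicate 1 (0.993; 77.4 CPM, the next 5.63 CPM). Other high libraries were Inha in fed WT replicate 1 (0.919), Bmpr2 in fasted KO replicate 2 (0.832), Fn1 in fed WT replicate 3 (0.88) and fasted WT replicate 1 (0.874), and Ddit3 in fasted WT replicate 4 (0.877). Around Inhbe, Arhgap9 was high in fed KO replicate 1 (0.902) and fasted KO replicate 1 (0.978), Gm47200 in fed KO replicate 1 (0.918) and R3hdm2 in fasted KO replicate 4 (0.85). The lymphocyte and neutrophil marker sum was high in fed KO replicate 1 (0.831), and Acvr1c was low in fed KO replicate 4 (0.899).

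The genotype difference itself differed between fasted and fed livers, by the test of the difference of genotype differences, for Atf3 (log2 2.923, adjusted p = 0.0309), Acta2 (-1.334, adjusted p = 0.045), Mars (0.5314, adjusted p = 0.0228) and Gm47200 (2.931, adjusted p = 0.0217), all by edgeR. These calls were lost without fasted WT replicates 2 and 4. The members Inhbe (1.843), Inhba (1.184) and Inhbc (0.785) passed the same threshold, but they were selected on these libraries, so nothing is read from it.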

How the results depend on the processing

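Over the alternatives run, 421 of 425 member differences moved by less than the spread between replicates. Of 3907 differences of named and neighbouring genes, 3701 were called or not called as before, 150 lost the call and 56 gained it. Of those called in either fit, 0 reversed, and the direction of uncalled differences was not checked. With library totals in place of TMM, the median of all genes moved to 0.215 (fed KO minus fed WT) and 0.198 (fasted), Inhbc fed was -0.4321, genes called were 4301 higher and 902 lower fasted and 4886 higher and 915 lower fed, pathway genes called fasted were 30 in place of 17, and the difference of genotype differences called 88 genes higher and 1 pathway gene. That last contrast, with 149 higher, 88 lower and 2 pathway genes called in the main analysis, depended most on settings: 285 higher, 245 lower and 4 pathway genes with DESeq2, 1 pathway gene without a count filter, and 51 to 352 higher, 34 to 171 lower and 0 to 6 pathway genes with 1 library left out. Without fed KO replicate 2 it called 352 higher, 171 lower and 6 pathway genes. Without fasted WT replicates 2 and 4 it called 39 higher, 33 lower and 0 pathway genes, and Inhbb had 1.084 between fasted genotypes, -0.6685 between feeding states in WT and 0.8678 for the difference of genotype differences. The cause was not tested. With a replicate block that contrast called 4 pathway genes. Same-numbered libraries correlated at -0.174 to 0.251 in 24 pairs, 3 of them over 0.1. They were not compared with differently numbered pairs, so these values cannot show whether the numbers pair the libraries. Depth limits Fstl3 (113 counts in all) and Inhbb.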

Other observations

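Fasting moved several pathway genes in both genotypes. Hamp2, the second hepcidin gene of the mouse, averaged 5.56 ± 2.7 CPM in fasted KO and 14.9 ± 2.9 CPM in fed KO livers, and 6.73 ± 2.1 CPM in fasted WT and 23.2 ± 4.9 CPM in fed WT livers (SD, n = 4 each). It fell in both (log2 -1.41 ± 0.30 in KO and -1.78 ± 0.30 in WT, adjusted p = 0.00165 and 0.000332, edgeR). The type I receptor gene Acvr1 fell (-0.50 ± 0.09 in KO and -0.40 ± 0.09 in WT, adjusted p = 0.000247 and 0.00203), as did the follistatin-like gene Fstl1 (-0.94 ± 0.14 and -0.42 ± 0.14, adjusted p = 2.55e-05 and 0.0262), where the call in WT was lost without fasted WT replicate 2 or 3 or fed WT replicate 1 or 2 (-0.40 to -0.33). Zfyve9, the gene of the SMAD anchor SARA, rose (0.63 ± 0.07 and 0.38 ± 0.07, adjusted p = 2.7e-06 and 0.00057), and so did the convertase gene Pcsk5 (0.51 ± 0.10 and 0.71 ± 0.10, adjusted p = 0.000394 and 2.12e-05). These genes were chosen after their values were seen.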
